A study of Mus musculus with 6 samples.

Results

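The interferon response genes described here are 46 genes of the deposited expression table, chosen by name out of 38926 genes: the receptors of type I and type II interferons, STAT and IRF transcription factors, and genes that these interferons induce, with the Ifitm family left out. The choice was made with earlier results of these data known. All 46 were found in the table, and 45 of them reached a mean of 1 FPKM (fragments scaled to gene length and to a size factor of each library) over the 6 libraries and were tested. They were measured by RNA sequencing in mouse LSK cells, which lack lineage markers, carry Sca-1 and Kit, and include the blood-forming stem cells and early progenitors of the marrow.

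LSK cells were sorted from crushed and collagenase-digested femur and tibia of wild-type C57BL/6 mice aged 8 to 12 weeks. One group received haloperidol, an antipsychotic drug known as a blocker of dopamine receptors, on 3 consecutive days, and the other received its vehicle DMSO on the same schedule. Drug or vehicle also remained with the cells throughout the sort, so both groups were exposed before and during it. Each group has 3 libraries, called DMSO replicates 1 to 3 and haloperidol replicates 1 to 3, each with between 8523556 and 8969076 reads assigned to genes. The labels do not say whether replicates came from separate mice or whether mice were pooled, and the p-values therefore reflect a spread between samples that may be technical. Days of sorting and sequencing are not given either, and if they followed the groups, batch and treatment cannot be told apart.

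Type I interferons bind a receptor made of IFNAR1 and IFNAR2, whose kinases JAK1 and TYK2 phosphorylate STAT factors, among them STAT2. With IRF9 STAT2 takes part in a complex that binds the interferon-stimulated response element (ISRE) in promoters of antiviral genes. Type II interferon, or interferon gamma, binds IFNGR1 and IFNGR2 and acts mainly through the gamma-activated site (GAS), inducing among others the factor IRF1, GTPases that attack pathogen vacuoles, and antigen processing genes. In mouse marrow both kinds of interferon can push quiescent stem cells into division, and Sca-1, on which LSK cells are sorted, is itself induced by interferon.

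To show what these elements look like, stretches of 120 bases that end at the base before the RefSeq gene start (build GRCm38.p6, the assembly of mm10) are given for 5 members. They were chosen, with their values known, to set 3 members that fell against 2 that did not pass the test. Each reads 5′ to 3′ along the strand of its gene, and capitals mark matches to the ISRE letters, searched as GAAA, any 2 bases and GAAA or on the other strand as TTTC, any 2 bases and TTTC, and to the GAS letters TTCNNNGAA, which read the same on both strands. Matches may overlap.
Isg15 (chr4:156200819-156200938, minus strand, fell): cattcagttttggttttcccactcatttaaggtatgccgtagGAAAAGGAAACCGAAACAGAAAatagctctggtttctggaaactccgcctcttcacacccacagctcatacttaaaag
Irf1 (chr11:53769894-53770013, plus strand, fell): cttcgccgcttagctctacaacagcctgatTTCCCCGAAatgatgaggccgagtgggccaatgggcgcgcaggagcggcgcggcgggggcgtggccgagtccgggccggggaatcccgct
Igtp (chr11:58199436-58199555, plus strand, fell): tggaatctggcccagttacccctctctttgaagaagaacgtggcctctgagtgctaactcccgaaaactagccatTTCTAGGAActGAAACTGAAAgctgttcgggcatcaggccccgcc
Irgm2 (chr11:58214857-58214976, plus strand, did not pass): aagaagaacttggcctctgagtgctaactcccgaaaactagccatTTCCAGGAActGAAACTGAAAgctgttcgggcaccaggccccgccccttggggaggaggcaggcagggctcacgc
Rsad2 (chr12:26456453-26456572, minus strand, did not pass): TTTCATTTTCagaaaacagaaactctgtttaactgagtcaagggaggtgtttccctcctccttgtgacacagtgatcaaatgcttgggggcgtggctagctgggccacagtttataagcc

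The Isg15 stretch held 3 overlapping ISRE matches and the Irf1 stretch 1 GAS match. In Igtp and Irgm2, neighbouring genes of the same GTPase family, a GAS match and an ISRE match stood 2 bases apart, and 87 of the 90 bases that align around them without gaps were identical. RefSeq windows from 250 bases before to 50 after the start were at hand for 38 members. An ISRE match lay in the windows of 15 of these (39.5%), against 4.0% of all 27025 genes with a window, and a GAS match in those of 13 (34.2%), against 9.6%. Among the 8099 tested genes with a window, the shares were 3.9% for the ISRE and 8.4% for the GAS. The members were chosen as interferon response genes, so their higher shares are no independent result. By direction, an ISRE match was found for 4 of 10 members that fell, 0 of 4 that rose and 11 of 24 that did not pass. A GAS match was found for 3 of 10, 1 of 4 and 9 of 24. A match describes the letters only.

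With haloperidol, 13 of the 45 tested members fell and 5 rose at an adjusted p below 0.05, and 27 did not pass. The members that fell made up 28.9%, where 13.0% of all 11436 genes tested fell, and those that rose made up 11.1%, near the 11.5% of all genes that rose. Counts by role below are small and are to be read against these shares of all genes. The test was limma on log2(FPKM + 1), with Benjamini-Hochberg adjustment over all genes tested, and fold changes are on that scale, which understates the change of low genes. The changes were small: log2 fold changes of members that fell lay between -0.70 and -0.28 and those of members that rose between 0.16 and 0.50, and 0 members reached a 2-fold change. The median of the 45 members was -0.06, against 0.002 for all genes tested. Every DMSO library lay above every haloperidol library for 17 members (37.8%, against 22.1% of all genes tested), and the reverse held for 6, against 21.0% of all genes. Without DMSO replicate 1, 2 or 3 or haloperidol replicate 1, 3 members rose. Of the 18 calls, 12 stood under each of the 12 other settings tried, and the 6 that did not are named below. In bulk RNA, fewer cells of a type and less RNA per cell cannot be told apart.

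**Figure D1:**
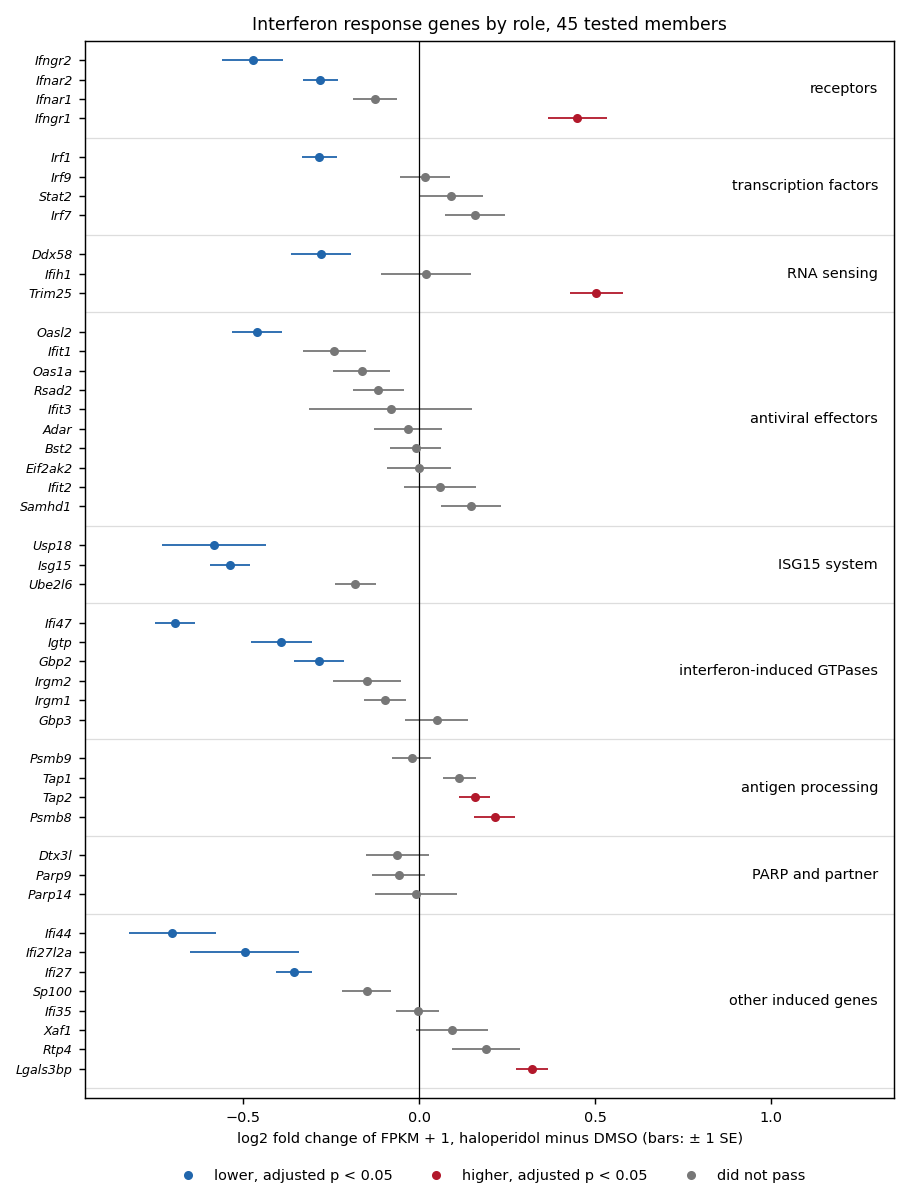
Log2 fold change of FPKM + 1 (haloperidol minus DMSO, n = 3 each) on the x axis for the 45 tested members, grouped by role on the y axis, with bars of 1 SE. Of the 45, 13 in blue fell, 5 in red rose and 27 in grey did not pass, and the medians by role run from -0.54 in the ISG15 system to 0.14 in antigen processing.

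Among the receptor genes, Ifngr1 rose, Ifngr2 and Ifnar2 fell, and Ifnar1 did not pass. Ifngr1, the ligand-binding chain of the interferon gamma receptor (chromosome 10, 19591949 to 19610229, GENCODE M21 on GRCm38), was at 136, 141 and 165 FPKM with DMSO and 192, 192 and 220.0 FPKM with haloperidol, replicates 1, 2 and 3 in that order, as in all lists of values here. All 3 haloperidol libraries were above all 3 DMSO libraries (log2 fold change 0.45, SE 0.08, adjusted p = 0.00660). Its partner Ifngr2, the signalling chain (chromosome 16, 91547072 to 91565623), was at 16.6, 18.6 and 17.9 FPKM with DMSO and 11.5, 14.2 and 11.9 FPKM with haloperidol. Here all haloperidol libraries were the lower ones (log2 fold change -0.47, SE 0.09, adjusted p = 0.00604). Per length, Ifngr1 was the more abundant of the pair in both groups, with means of 147 and 17.7 FPKM in DMSO.

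Ifnar2, the high-affinity chain of the type I receptor (chromosome 16, 91372783 to 91405589), was at 52.3, 54.95 and 55.95 FPKM with DMSO and 45.2, 44.5 and 43.9 FPKM with haloperidol. The groups did not overlap and the 3 haloperidol libraries lay within 2 FPKM of each other (log2 fold change -0.28, SE 0.05, adjusted p = 0.00479). Its partner Ifnar1, on the same chromosome (91485238 to 91507441), was at 17.01, 16.96 and 16.3 FPKM with DMSO and 14.4, 15.5 and 15.96 FPKM with haloperidol. The groups did not overlap, but the change did not pass (log2 fold change -0.13, SE 0.06, adjusted p = 0.175, 95% interval -0.27 to 0.02).

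Of the 4 transcription factor genes, Irf1 fell and Stat2, Irf7 and Irf9 did not pass. Irf1, an interferon-induced factor that drives many gamma-responsive genes (chromosome 11, 53770014 to 53778374), was at 111, 112 and 113 FPKM with DMSO and 87.6, 91.6 and 96.5 FPKM with haloperidol. All DMSO libraries lay within 2 FPKM of each other and above all haloperidol libraries (log2 fold change -0.28, SE 0.05, adjusted p = 0.00484). Irf7, the amplifier of type I interferon production and itself strongly interferon-induced, was at 20.1, 15.97 and 17.8 FPKM with DMSO and 21.1, 18.99 and 20.2 FPKM with haloperidol. The groups overlapped and haloperidol had the higher mean (log2 fold change 0.16, SE 0.09, adjusted p = 0.214). Stat2 and Irf9, partners in the complex that binds the ISRE, were at 7.96, 8.01 and 7.44 FPKM with DMSO and 7.35, 8.90 and 8.96 FPKM with haloperidol, and at 22.6, 20.2 and 22.99 FPKM with DMSO and 20.7, 23.1 and 22.7 FPKM with haloperidol, respectively. Both overlapped between groups, with 95% intervals of the log2 fold change of -0.11 to 0.29 for Stat2 and -0.14 to 0.18 for Irf9.

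In the ISG15 system, Isg15 and Usp18 fell. Isg15 encodes a ubiquitin-like protein that is conjugated to other proteins in interferon-treated cells (chromosome 4, 156199424 to 156200818), and was at 49.99, 49.04 and 47.1 FPKM with DMSO and 31.8, 35.1 and 32.8 FPKM with haloperidol. The gap between the groups was larger than the range within either (log2 fold change -0.54, SE 0.06, adjusted p = 0.000474). Usp18, which removes ISG15 and also damps signalling at IFNAR2, was at 22.6, 20.03 and 22.05 FPKM with DMSO and 16.5, 15.9 and 10.5 FPKM with haloperidol. The groups did not overlap, but haloperidol replicate 3 lay well under the other haloperidol libraries (log2 fold change -0.58, SE 0.15, adjusted p = 0.0226). Without DMSO replicate 1 or 3 the adjusted p of Usp18 was 0.0684 or 0.0682, and testing every gene above 0 gave 0.0828. The conjugating enzyme gene Ube2l6 was at 103, 109 and 107 FPKM with DMSO and 89.6, 101 and 90.2 FPKM with haloperidol. All DMSO libraries were above all haloperidol libraries and the difference just missed the threshold (log2 fold change -0.18, SE 0.06, adjusted p = 0.0545), while it passed without haloperidol replicate 2 (adjusted p = 0.0217), with the replicate number as a block (0.0453) and with voom on recovered reads (0.0353).

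Among antiviral effectors, Oasl2 fell, and the other 9 tested genes did not pass. Oasl2, a member of the oligoadenylate synthetase family, was at 27.4, 26.3 and 27.9 FPKM with DMSO and 21.1, 19.8 and 17.7 FPKM with haloperidol. The lowest DMSO library was above the highest haloperidol library by about 5 FPKM (log2 fold change -0.46, SE 0.07, adjusted p = 0.00284). Its relative Oas1a, which makes the activator of the antiviral RNase L, was at 21.8, 20.9 and 23.6 FPKM with DMSO and 18.3, 21.96 and 18.8 FPKM with haloperidol. Haloperidol replicate 2 lay above DMSO replicates 1 and 2, and the change did not pass (log2 fold change -0.16, SE 0.08, adjusted p = 0.176). Reads of Oas paralogues can be shared, so these levels are uncertain.

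Bst2, or tetherin, which holds budding virus at the cell surface, was the most abundant effector at 119, 112 and 118 FPKM with DMSO and 108, 109 and 129.7 FPKM with haloperidol. The haloperidol libraries spanned the DMSO range (log2 fold change -0.01, SE 0.07, adjusted p = 0.934, 95% interval -0.18 to 0.16). Rsad2, or viperin, which makes a chain-terminating nucleotide (chromosome 12, 26442746 to 26456452), was at 19.1, 19.5 and 18.8 FPKM with DMSO and 19.3, 17.5 and 16.03 FPKM with haloperidol. Haloperidol replicate 1 lay inside the DMSO range and replicates 2 and 3 lay under it (log2 fold change -0.12, SE 0.07, adjusted p = 0.277, 95% interval -0.28 to 0.05).

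Ifit1, which binds foreign 5′ RNA ends, was at 8.61, 7.80 and 8.35 FPKM with DMSO and 6.87, 7.58 and 6.09 FPKM with haloperidol, with no overlap, but did not pass (log2 fold change -0.24, SE 0.09, adjusted p = 0.0820). Its relatives Ifit2 and Ifit3 had log2 fold changes of 0.06 (SE 0.10) and -0.08 (SE 0.23), both with overlapping groups, and Ifit3 had as few as 14 reads in a library. Eif2ak2, or PKR, the kinase that stops translation on double-stranded RNA, Adar, an RNA-editing deaminase, and Samhd1, a nucleotide-cleaving enzyme, had log2 fold changes of -0.001, -0.03 and 0.15, and each overlapped between groups. Mx1, a dynamin-like antiviral GTPase, was under the level tested, with 11 to 18 reads in the DMSO libraries and 11 to 20 in the haloperidol libraries.

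**Figure D2:**
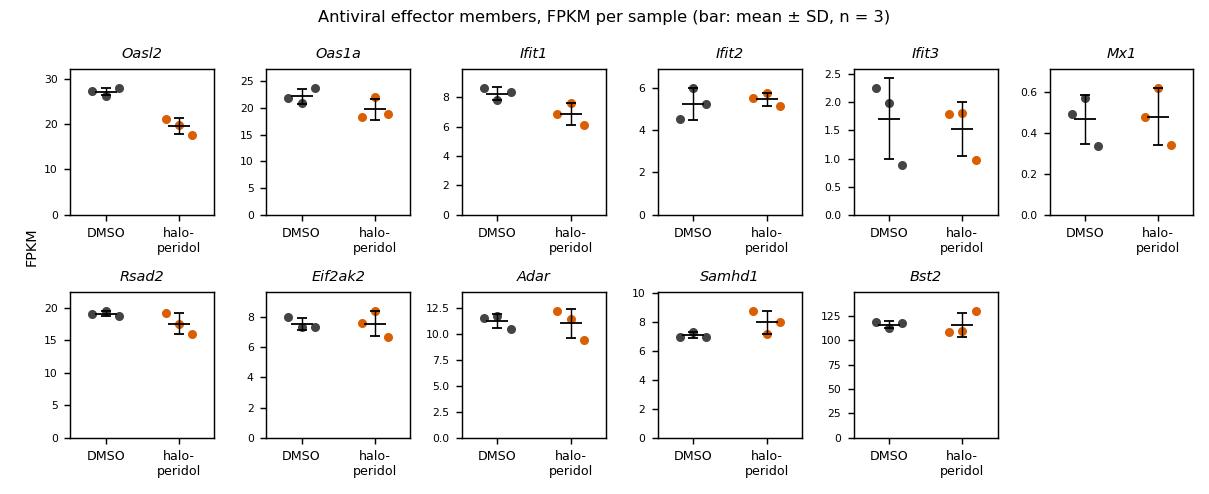
FPKM (y axis, from 0 in each panel) of the 11 antiviral effector genes in each of the 3 DMSO and 3 haloperidol libraries, with mean and SD. Oasl2 and Ifit1 show separate groups, and the other 9, the untested Mx1 among them, overlap.

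Of the 3 RNA sensing genes, 1 rose, 1 fell and 1 did not pass. Trim25, a ubiquitin ligase best known for activating the sensor RIG-I (chromosome 11, 88999376 to 89020293), was at 12.96, 11.2 and 11.1 FPKM with DMSO and 16.7, 16.5 and 17.8 FPKM with haloperidol. All haloperidol libraries were higher, and this was the largest rise among the members (log2 fold change 0.50, SE 0.08, adjusted p = 0.00244). Ddx58, which encodes RIG-I itself, was at 12.8, 13.03 and 13.6 FPKM with DMSO and 11.7, 10.98 and 9.39 FPKM with haloperidol. All haloperidol libraries were lower (log2 fold change -0.28, SE 0.08, adjusted p = 0.0427), but the call was lost when every gene above 0 was tested (adjusted p = 0.0944), with the replicate number as a block (adjusted p = 0.0694) and when any library except haloperidol replicate 1 was left out (adjusted p = 0.0749 to 0.118, these being DMSO replicates 1, 2 and 3 and haloperidol replicates 2 and 3). The related sensor gene Ifih1, encoding MDA5, was at 2.36, 2.26 and 2.29 FPKM with DMSO and 2.72, 2.56 and 1.83 FPKM with haloperidol, with overlapping groups (log2 fold change 0.02, SE 0.13, adjusted p = 0.934).

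Of the 6 interferon-induced GTPase genes, 3 fell and 3 did not pass. Ifi47, of the immunity-related GTPase family (chromosome 11, 49076587 to 49096974), was at 61.1, 63.8 and 66.5 FPKM with DMSO and 40.4, 37.04 and 39.7 FPKM with haloperidol. The groups were more than 20 FPKM apart (log2 fold change -0.69, SE 0.06, adjusted p = 0.000147), the smallest adjusted p among the members. Igtp, also known as Irgm3, was at 33.3, 33.3 and 34.7 FPKM with DMSO and 24.3, 23.1 and 29.5 FPKM with haloperidol. Haloperidol replicate 3 lay nearest to the DMSO libraries without reaching them (log2 fold change -0.39, SE 0.09, adjusted p = 0.0131).

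Irgm1 and Irgm2, regulators that keep the effector GTPases off the cell's own membranes, were at 18.95, 17.8 and 19.5 FPKM with DMSO and 17.8, 16.9 and 17.7 FPKM with haloperidol, and at 7.59, 8.62 and 8.48 FPKM with DMSO and 6.90, 6.71 and 8.43 FPKM with haloperidol, respectively. Irgm1 did not overlap between groups and Irgm2 did, and neither passed (log2 fold change -0.10, SE 0.06, adjusted p = 0.273 for Irgm1 and log2 fold change -0.15, SE 0.10, adjusted p = 0.300 for Irgm2). Igtp and Irgm2 share 87 of 90 aligned bases in the stretches printed above, and whether the fold changes of these genes differ from each other was not tested. Their annotated exons also overlap over 162 bases, 8.0% of those of Igtp.

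The guanylate-binding protein gene Gbp2 was at 29.5, 33.3 and 32.8 FPKM with DMSO and 25.3, 24.6 and 28.1 FPKM with haloperidol. All haloperidol libraries were lower (log2 fold change -0.29, SE 0.07, adjusted p = 0.0209), but the call was lost when every gene above 0 was tested (adjusted p = 0.0527) and without DMSO replicate 2 or 3 or haloperidol replicate 1 or 2 (adjusted p = 0.0666 to 0.0769). Gbp3, on the same chromosome 3, was at 14.9, 19.1 and 18.04 FPKM with DMSO and 17.3, 18.2 and 18.1 FPKM with haloperidol, with overlapping groups (log2 fold change 0.05, SE 0.09, adjusted p = 0.724). Reads of these paralogues can be shared, so their levels are uncertain.

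Of the 4 antigen processing genes, 2 rose and 2 did not pass. Psmb8, an inducible catalytic subunit of the immunoproteasome, had the highest mean of the members, at 219.9, 229 and 225 FPKM with DMSO and 251, 248 and 283 FPKM with haloperidol. Haloperidol replicate 3 was the highest, and all haloperidol libraries exceeded all DMSO libraries (log2 fold change 0.21, SE 0.06, adjusted p = 0.0305). Tap2, a chain of the peptide transporter that feeds MHC class I molecules, was at 112, 114 and 111 FPKM with DMSO and 128, 124 and 123 FPKM with haloperidol. The groups did not overlap (log2 fold change 0.16, SE 0.04, adjusted p = 0.0315).

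Both rises were near the threshold. The call for Psmb8 was lost when every gene above 0 was tested (adjusted p = 0.0805) and without DMSO replicate 1, 2 or 3 or haloperidol replicate 1 or 3 (adjusted p = 0.0501 to 0.0859). That for Tap2 ended with rescaling to a common sum (adjusted p = 0.0636), with the replicate number as a block (adjusted p = 0.0504) and without DMSO replicate 1, 2 or 3 or haloperidol replicate 1 or 2 (adjusted p = 0.0692 to 0.101). Tap1, the other transporter chain, was at 44.9, 44.3 and 45.9 FPKM with DMSO and 48.1, 49.95 and 48.3 FPKM with haloperidol, with no overlap and a higher mean in haloperidol that did not pass (log2 fold change 0.11, SE 0.05, adjusted p = 0.116). Psmb9, the immunoproteasome subunit whose gene stands head to head with Tap1, was at 52.3, 51.4 and 54.5 FPKM with DMSO and 49.2, 52.3 and 54.3 FPKM with haloperidol, with overlapping groups (log2 fold change -0.02, SE 0.05, adjusted p = 0.804). The libraries keep no strand, and annotated genes on the opposite strand overlap 18.5% of the exon bases of Tap2 and 14.7% of those of Psmb8, whose reads cannot be told apart from theirs.

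The 3 genes of the PARP group did not pass. Parp9 and Dtx3l, which form a complex and share a promoter region, were at 16.2, 15.3 and 16.1 FPKM with DMSO and 16.5, 15.4 and 13.7 FPKM with haloperidol, and at 10.5, 10.7 and 10.1 FPKM with DMSO and 10.9, 10.4 and 8.63 FPKM with haloperidol, respectively. In both, haloperidol replicate 3 was the lowest library and the groups overlapped (95% intervals -0.23 to 0.12 and -0.27 to 0.14). Parp14, a mono-ADP-ribosyltransferase of the same locus, had a log2 fold change of -0.01 (SE 0.12).

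Of the 8 remaining induced genes, 3 fell, 1 rose and 4 did not pass. Ifi44, an interferon-induced gene of the cytoplasm (chromosome 3, 151730922 to 151749960), was at 6.55, 7.04 and 8.19 FPKM with DMSO and 3.65, 4.97 and 3.67 FPKM with haloperidol. This was the largest fall among the members, with no overlap (log2 fold change -0.70, SE 0.12, adjusted p = 0.00487). Ifi27 (chromosome 12, 103434211 to 103440239) and Ifi27l2a belong to a family of small membrane proteins induced by type I interferon.

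Ifi27 was at 93.6, 95.2 and 99.4 FPKM with DMSO and 71.3, 77.5 and 75.6 FPKM with haloperidol, with all haloperidol libraries lower (log2 fold change -0.36, SE 0.05, adjusted p = 0.00203). Ifi27l2a was at 27.9, 24.9 and 27.3 FPKM with DMSO and 14.1, 19.2 and 23.8 FPKM with haloperidol. Its haloperidol libraries were widely spread, and replicate 3 came close to the DMSO libraries (log2 fold change -0.50, SE 0.15, adjusted p = 0.0476). The call was lost when every gene above 0 was tested (adjusted p = 0.142), with upper quartile scaling (adjusted p = 0.0541) and without DMSO replicate 1, 2 or 3 or haloperidol replicate 1 or 2 (adjusted p = 0.0753 to 0.12).

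Lgals3bp, a secreted glycoprotein that binds galectins (chromosome 11, 118392751 to 118402092), rose. It was at 127, 132 and 127 FPKM with DMSO and 165, 156 and 161 FPKM with haloperidol, with all haloperidol libraries higher (log2 fold change 0.32, SE 0.05, adjusted p = 0.00192). Ifi35 and Rtp4 were at 36.04, 39.998 and 39.3 FPKM with DMSO and 36.3, 39.1 and 39.5 FPKM with haloperidol, and at 29.2, 25.5 and 28.7 FPKM with DMSO and 35.5, 32.96 and 27.5 FPKM with haloperidol, respectively. Both overlapped between groups and did not pass, although Rtp4 passed as a rise without haloperidol replicate 3 (adjusted p = 0.0369). Sp100, a nuclear body protein, and Xaf1, a gene linked to cell death, had log2 fold changes of -0.15 (SE 0.07) and 0.09 (SE 0.10).

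**Figure D3:**
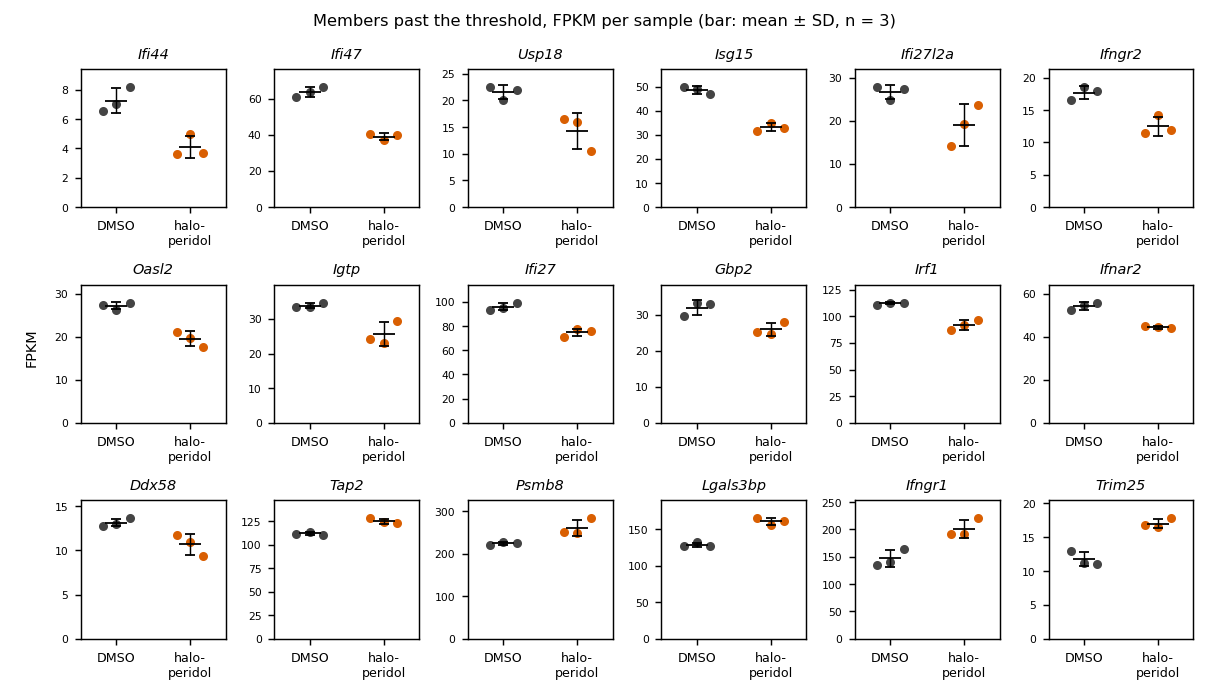
FPKM (y axis, from 0 in each panel) of the 18 members past the threshold in each of the 3 DMSO and 3 haloperidol libraries, ordered from the largest fall to the largest rise, with mean and SD. The groups are separate in each panel, from Ifi44 at means of 7.26 and 4.10 FPKM to Trim25 at 11.7 and 17.02 FPKM.

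Levels of the members ranged from a mean of 0.471 FPKM for Mx1 to 243 FPKM for Psmb8 over the 6 libraries, with a median of 18.7 FPKM against 9.88 FPKM for all genes tested. Means of 6 members were at least 100 FPKM, namely Ifngr1, Irf1, Bst2, Psmb8, Tap2 and Lgals3bp. These include 1 that fell and 4 that rose, where 13.0% of all genes tested fell and 11.5% rose. Among the 27 members that did not pass, haloperidol replicate 3 was the lowest haloperidol library for 13 and replicate 2 for 4. Over all genes tested, haloperidol replicate 3 was the lowest of its group for 36.9% and replicate 2 for 32.1%.

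Another 101 genes of the interferon pathway were listed from textbook knowledge, but with earlier results of these data known. Of these, 81 were tested, and 20 fell (24.7%, against 13.0% of all genes) and 6 rose (7.41%, against 11.5%). Their median log2 fold change was -0.07. As the list was not blind to the data, these shares are no independent support for those of the members. The number that rose was 2 without DMSO replicate 2 and 3 without DMSO replicate 1 or 3 or haloperidol replicate 2 or 3, was 4 without haloperidol replicate 1 and the same with the replicate number as a block, and was 2 when every gene above 0 was tested and 3 after rescaling to a common sum. Jak1, the kinase common to both receptors, was at 61.6, 62.99 and 61.4 FPKM with DMSO and 60.3, 62.4 and 60.2 FPKM with haloperidol, with overlapping groups (log2 fold change -0.02, SE 0.05, adjusted p = 0.739, 95% interval -0.13 to 0.08). Jak2 and Tyk2 did not pass either.

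Cxcl10, a chemokine induced by interferon gamma (chromosome 5, 92346638 to 92348889), had the smallest p of these genes. It was at 38.4, 43.2 and 40.2 FPKM with DMSO and 18.4, 17.2 and 19.9 FPKM with haloperidol, and each haloperidol library was under 20 FPKM and each DMSO library over 38 FPKM (log2 fold change -1.09, SE 0.07, adjusted p = 5.44e-05). Ccl5, the other of 2 chemokine genes tested, fell too, with means of 4.38 and 2.05 FPKM, named after its values were seen.

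Genes of nucleic acid sensing and interferon induction included 4 that fell and 0 that rose among 14 tested. Of all genes tested, 13.0% fell and 11.5% rose, and groups this small give imprecise shares. Tmem173, which encodes the DNA-sensing adaptor STING, was at 69.9, 67.8 and 66.7 FPKM with DMSO and 38.9, 41.1 and 43.7 FPKM with haloperidol. All haloperidol libraries were lower (log2 fold change -0.71, SE 0.06, adjusted p = 0.000138). Irf8, a factor of monocyte and dendritic cell development, was at 13.2, 13.1 and 12.7 FPKM with DMSO and 7.79, 5.98 and 6.91 FPKM with haloperidol (log2 fold change -0.84, SE 0.09, adjusted p = 0.000554). Mavs, the adaptor of the RNA sensors, and Irf3, the factor that starts interferon transcription, also fell, with log2 fold changes of -0.41 and -0.38, and are named after their values were seen.

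Of 8 negative regulators of the pathway, 2 fell and 0 rose, where 13.0% of all genes tested fell and 11.5% rose. Among the 6 that did not pass, Socs1 was higher in each haloperidol library, and is named after its values were seen. Its means were 17.6 FPKM with DMSO and 21.6 FPKM with haloperidol (log2 fold change 0.28, SE 0.09, adjusted p = 0.0506). Irf2, a repressor that competes with IRF1 for DNA and is known to protect stem cells from interferon signalling, was at 36.2, 31.8 and 32.3 FPKM with DMSO and 22.1, 21.2 and 18.8 FPKM with haloperidol, with no overlap (log2 fold change -0.67, SE 0.08, adjusted p = 0.000730). Ptpn6, the phosphatase SHP-1, which dephosphorylates Janus kinases, was at 159, 158 and 173 FPKM with DMSO and 117, 118 and 113 FPKM with haloperidol (log2 fold change -0.49, SE 0.05, adjusted p = 0.000547). Of 7 other GTPase genes tested, 4 fell and 0 rose, against the same shares of all genes. Tgtp1 and Tgtp2 were at 9.17, 7.69 and 8.79 FPKM with DMSO and 5.005, 4.84 and 5.11 FPKM with haloperidol, and at 26.03, 25.7 and 29.3 FPKM with DMSO and 14.4, 14.9 and 18.7 FPKM with haloperidol, respectively, with no overlap in either (adjusted p = 0.00108 and 0.00168), but as near-identical copies they share reads and are uncertain. The others were Gbp6 and Gbp8, named after their values were seen, with log2 fold changes of -0.79 and -0.96. Both reached the tested mean of 1 FPKM only through their DMSO libraries. With haloperidol their means were 0.554 and 0.708 FPKM, from 19 to 22 and 12 to 20 reads per library. Reads of Gbp paralogues can be shared, so these levels are uncertain too.

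Of 14 other antigen presentation genes tested, 4 rose and 0 fell, where 11.5% of all genes tested rose and 13.0% fell. The 4 were Erap1, Calr, H2-T23 and Tapbp, named after their values were seen, with log2 fold changes of 0.29, 0.22, 0.15 and 0.14. The calls for H2-T23 and Tapbp were lost when any 1 library was left out (adjusted p = 0.0619 to 0.142). Their adjusted p was also 0.07 and 0.0742 with the replicate number as a block, 0.0807 and 0.0752 after rescaling to a common sum, and 0.0658 and 0.0695 when every gene above 0 was tested, and that of Tapbp was 0.0523 with upper quartile scaling. Of 32 other antiviral genes tested, 7 fell and 2 rose, the latter being Ly6e and Oas1c, named after their values were seen, of which Oas1c lost its call when any 1 library was left out (adjusted p = 0.0765 to 0.14) and Ly6e without DMSO replicate 2 (adjusted p = 0.0581) or haloperidol replicate 1 (adjusted p = 0.0505). The call for Oas1c was also lost with the replicate number as a block (adjusted p = 0.0855), after rescaling to a common sum (adjusted p = 0.0636) and with voom on recovered reads (adjusted p = 0.0945). Of the falls, that of Slfn2 was lost with the replicate block (adjusted p = 0.0562), upper quartile scaling (0.0514) and voom (0.0645). Testing every gene above 0 ended the calls for both Oas1c (adjusted p = 0.0947) and Ly6e (adjusted p = 0.0577). It also ended the falls of Slfn2, Isg20 and Nmi, named after their values were seen (adjusted p = 0.128, 0.0541 and 0.0709). Slfn2 lost its call without DMSO replicate 2 or 3 or any haloperidol replicate (0.0879 to 0.14). Isg20 lost it without DMSO replicate 1 or 2 or haloperidol replicate 2 or 3 (0.0514 to 0.0923). Nmi lost it without DMSO replicate 2 or 3 or haloperidol replicate 1 or 3 (0.0579 to 0.0749). Ly6a, which encodes the sorted protein Sca-1, was at 139, 125 and 144 FPKM with DMSO and 142, 126 and 147 FPKM with haloperidol, with overlapping groups (log2 fold change 0.02, SE 0.07, adjusted p = 0.861).

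Counted transcripts of the interferon genes listed were at or near 0 at this depth. Of the Ifna genes only Ifna2, Ifna4 and Ifna5 were listed. Reads of Ifna paralogues can be shared, so their levels are uncertain. Of 9 interferon genes listed, 7 had 0 reads in all 6 libraries, so that by counting error alone a level below 0.334 to 0.352 RPM (reads per library total, scaled) could be missed, and Ifnb1 and Ifng had at most 1 read in any library.

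**Figure D4:**
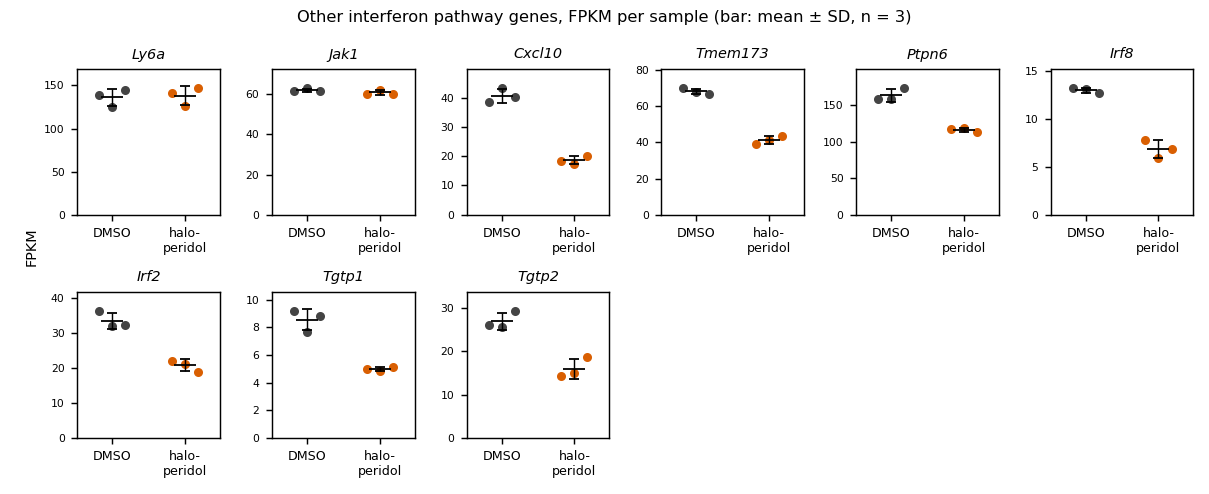
FPKM (y axis, from 0 in each panel) of 9 other interferon pathway genes in each of the 3 DMSO and 3 haloperidol libraries, with mean and SD. Cxcl10, Tmem173, Ptpn6, Irf8, Irf2, Tgtp1 and Tgtp2 are lower in each haloperidol library, and Ly6a and Jak1 overlap.

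The labelled cell type was checked by its markers. Kit and Ly6a were at 69.8 to 96.3 and 125 to 147 FPKM in the 6 libraries, and Cd34 and Flt3 were above 100 FPKM in each. Of 8 markers of LSK cells and their stem cells, Cd34, Procr and Hlf fell and Flt3 rose (log2 fold changes -0.22, -0.37, -1.03 and 0.16), and the summed level was 1037 to 1078 FPKM with DMSO and 934 to 975 FPKM with haloperidol. Of 6 B cell markers, the 2 tested (Cd79a and Cd79b) fell, and the summed level of the list was 34.6 to 36.2 FPKM with DMSO and 22.4 to 24.97 FPKM with haloperidol, while the defining Pax5 and Ms4a1 had at most 0.0336 and 0.218 FPKM. Of 6 plasmacytoid dendritic cell markers, Ccr9 fell and Cox6a2 did not pass, the summed level was 16.9 to 25.3 and 10.7 to 18.2 FPKM, and the defining Siglech was at most 0.393 FPKM. Cd79a and Ccr9 reached the tested mean of 1 FPKM only through their DMSO libraries. With haloperidol their means were 0.752 and 0.961 FPKM, from 8 to 13 and 29 to 58 reads per library. Of 8 monocyte or macrophage markers, 0 of 3 tested passed, with sums of 84.7 to 99.6 and 90.4 to 115 FPKM that were mostly Cd14. Below the level tested, Cx3cr1 was lower in each haloperidol library (means of 1.27 FPKM with DMSO and 0.383 FPKM with haloperidol). Ccr2, also untested, was higher in each (0.601 and 1.04 FPKM). Of 8 T or NK cell markers, 0 of 2 tested passed, with sums of 313 to 334 and 275 to 319 FPKM that were nearly all Nkg7, while Cd3e was at most 0.0809 FPKM and Cd8a was at 0. Of 6 neutrophil markers 0 passed, with sums of 162 to 272 and 167 to 295 FPKM, and of 6 erythroid markers 0 passed, with sums of 3588 to 4758 and 4155 to 5489 FPKM. Of 5 endothelial markers, 1 of 3 tested fell (Emcn), with sums of 20.2 to 20.7 and 18.7 to 20.2 FPKM. The part of these cells in the differences above was not tested.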

How the data were processed

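RNA from 3 DMSO and 3 haloperidol samples of LSK cells was sequenced. The labels' protocols name a SMART-Seq low-input cDNA kit and Nextera library preparation, which do not keep strand. Genome build mm10 and the tools DESeq2 1.18.1, HTSeq 0.6.1, bcl2fastq 2.19.1.403 and TopHat2 2.1.1 are named per the submitters' processing notes, with neither the annotation nor the options of counting. The values the authors deposited are FPKM, 1 column per sample.

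Reads were recovered from the FPKM steps (whole within 0.001 reads for 100.0% of 20633 genes above 0) and used for depths, read numbers and voom. They showed the FPKM to be scaled by median-of-ratios size factors. Chi-square divided by its degrees of freedom was 2.92 to 4.75 for libraries of the same group and 12.96 to 18.32 otherwise, and all 6 were kept as separate samples.

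limma 3.58.1 (R 4.3.3, variance trend, two-sided, no covariate) was run on log2(FPKM + 1) of the 11436 genes with a mean of 1 FPKM or more, and calls were made at an adjusted p below 0.05 (Benjamini-Hochberg over these genes). The script was tested on simulated data. Members and lists were chosen with earlier results of these data known. By rule, the text gives values for each member past the threshold, each receptor and transcription factor, the 2 most abundant members of each role, and, among other pathway genes, Ly6a, Jak1 and the called genes of smallest p. Values of further members, Rsad2, Ifit1 and Irgm2 among them, are given beyond what the rule asks. A gene that this rule also names is not reported here. Other settings changed the pseudocount, the filter, the scaling, the replicate block, the libraries or the test. Promoter windows and names came from RefSeq (GRCm38.p6) and gene positions from GENCODE M21. Limits for 0 reads (3 counts) cover counting error only.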

Additional observations from a re-analysis of the deposited data

How the results depend on the processing

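Of the 18 calls among the members, 9 of the falls and 3 of the rises stood under each of 12 other settings: a pseudocount of 0.1, no filter on low values, rescaling to a common sum or upper quartile, a replicate block, voom on recovered reads (added after seeing the data) and leaving out each of 6 libraries. 0 members changed the direction of a call. With no filter, 9 members fell and 4 rose and 1954 genes passed in all, where more genes were tested. Members that fell numbered 9 to 12, and those that rose 3 to 5, with 1 library left out. All genes past the threshold numbered 1814 to 2160 in those fits, lowest without DMSO replicate 2. Other pathway genes that rose numbered 2 with no filter, 3 with rescaling to a common sum and 2 to 4 with 1 library left out, and those that fell 17 to 19. With the replicate block, 13 members fell and 4 rose, and 2552 genes passed. To look for pairing, each gene's group mean was first taken from its log2(FPKM + 1), and only the deviations left were correlated. Deviations of same-numbered samples correlated at 0.00946, 0.055 and 0.0195. Those of DMSO replicate 1 correlated best with those of haloperidol replicate 3 (0.0618), so not every sample's deviations correlated best with its own number. The planned edgeR test was not run because the values are FPKM. With 14 to 35 reads in a library, Ifit3 is limited by depth. The cause of lost calls was not tested.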
